A study of Mus musculus with 14 samples.

Results

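The 9 genes described here are C1qa, C1qb, C1qc, Csf1r, Cx3cr1, P2ry12, Tmem119, Aif1 and Trem2. They were taken by symbol from a table of 23412 mouse genes, and each is listed there once. The first 3 encode the chains of complement C1q, and the others are used as marker genes of microglia, the resident macrophages of the brain. Whole-cortex lysates were read by RNA-seq after ribosomal RNA depletion and by ribosome profiling, which sequences the short mRNA fragments (footprints) that ribosomes protect from RNase I. Control mice had the genotype Rpl22flox/flox;CamKCre+, and knockout (KO) mice were Fmr1X-Y; Rpl22flox/flox;CamKCre+, so both groups carried a floxed Rpl22 and a CamK Cre transgene and differed at Fmr1, which encodes FMRP, a protein that binds mRNA and ribosomes. CamK Cre drives recombination in excitatory neurons rather than in microglia, the protocols name no immunoprecipitation of tagged ribosomes, and the labels give no age. RNA came from control mice 1, 3, 6 and 8 and KO mice 2, 4, 5 and 7. Footprints came from control mice 1, 3 and 9 and KO mice 2, 4 and 10, so mice 1 to 4 were read in both assays. The title of the series names translation elongation in Fmr1 knock-out brain as its question.

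Microglia depend on the receptor Csf1r for survival, and they follow signals from neurons through Cx3cr1 and the ADP receptor P2ry12. In healthy brain they are the main source of C1q, the recognition molecule of the classical complement pathway. Its A, B and C chains wind together through collagen-like stems, and the assembled molecule binds the proteases C1r and C1s, which then cleave C4 and C2 and so lead to C3. C1q and C3 can tag synapses that microglia later engulf.

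Total counts were 8847547 to 11371851 in the RNA libraries and 4124065 to 6033030 in the footprint libraries. Levels are given as CPM, counts scaled to a common library size by the TMM method, and they are compared between genotypes and not between genes, because transcript lengths were not used. Fmr1 RNA was at 71.3 to 89.9 CPM in control mice and 18.1 to 23.4 CPM in KO mice, and its footprints at 111 to 115 CPM against 5.82 to 8.54 CPM, so the targeted gene was low in each KO library. The RNA libraries of KO mice 2, 4 and 7 were close to one another: their chi-square over genes, divided by its degrees of freedom, was 1.18 to 1.32, against 1.99 to 11.8 in the other 9 pairs of RNA libraries of 1 genotype. All 6 pairs of footprint libraries of 1 genotype lay between 1.15 and 1.42. Libraries are counted as the numbered mice of the labels, a choice that these values do not decide. Where the closeness of KO mice 2, 4 and 7 in RNA bears on a result, the value with these 3 libraries summed is given too. No footprint libraries were summed.

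C1qb was the only one of the 9 genes whose level differed between genotypes by the test across all genes, and it was lower in KO mice in both assays. In RNA its log2 fold change, KO relative to control, was -0.45 ± 0.091 (SE, adjusted p = 0.0102), and in footprints -0.48 ± 0.075 (SE, adjusted p = 1.49e-07), a level that fell by 26.9% and fell by 28.3%. Both are from edgeR's quasi-likelihood test with Benjamini-Hochberg adjustment over every gene tested, and a gene is said to be called where the adjusted p is under 0.05. Of 13507 genes tested in RNA 7.51% were called, 3.58% higher and 3.94% lower in KO mice. Of 12158 genes tested in footprints 25.7% were called, 12% higher and 13.7% lower. All 9 genes passed the filter on low counts in both assays, so 1 of 9 called in RNA and 1 of 9 in footprints are shares near the background in RNA and below it in footprints. The RNA fold changes of the other 8 genes lay between -0.42 and 0.082, and 8 of the 9 genes had a value below 0, with a median of -0.13 against -0.0010 for all genes. In footprints 3 of 9 were below 0 and the median was 0.022, against 0.0061 for all genes. In bulk tissue, fewer cells of a type and less RNA per cell cannot be told apart.

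**Figure D1:**
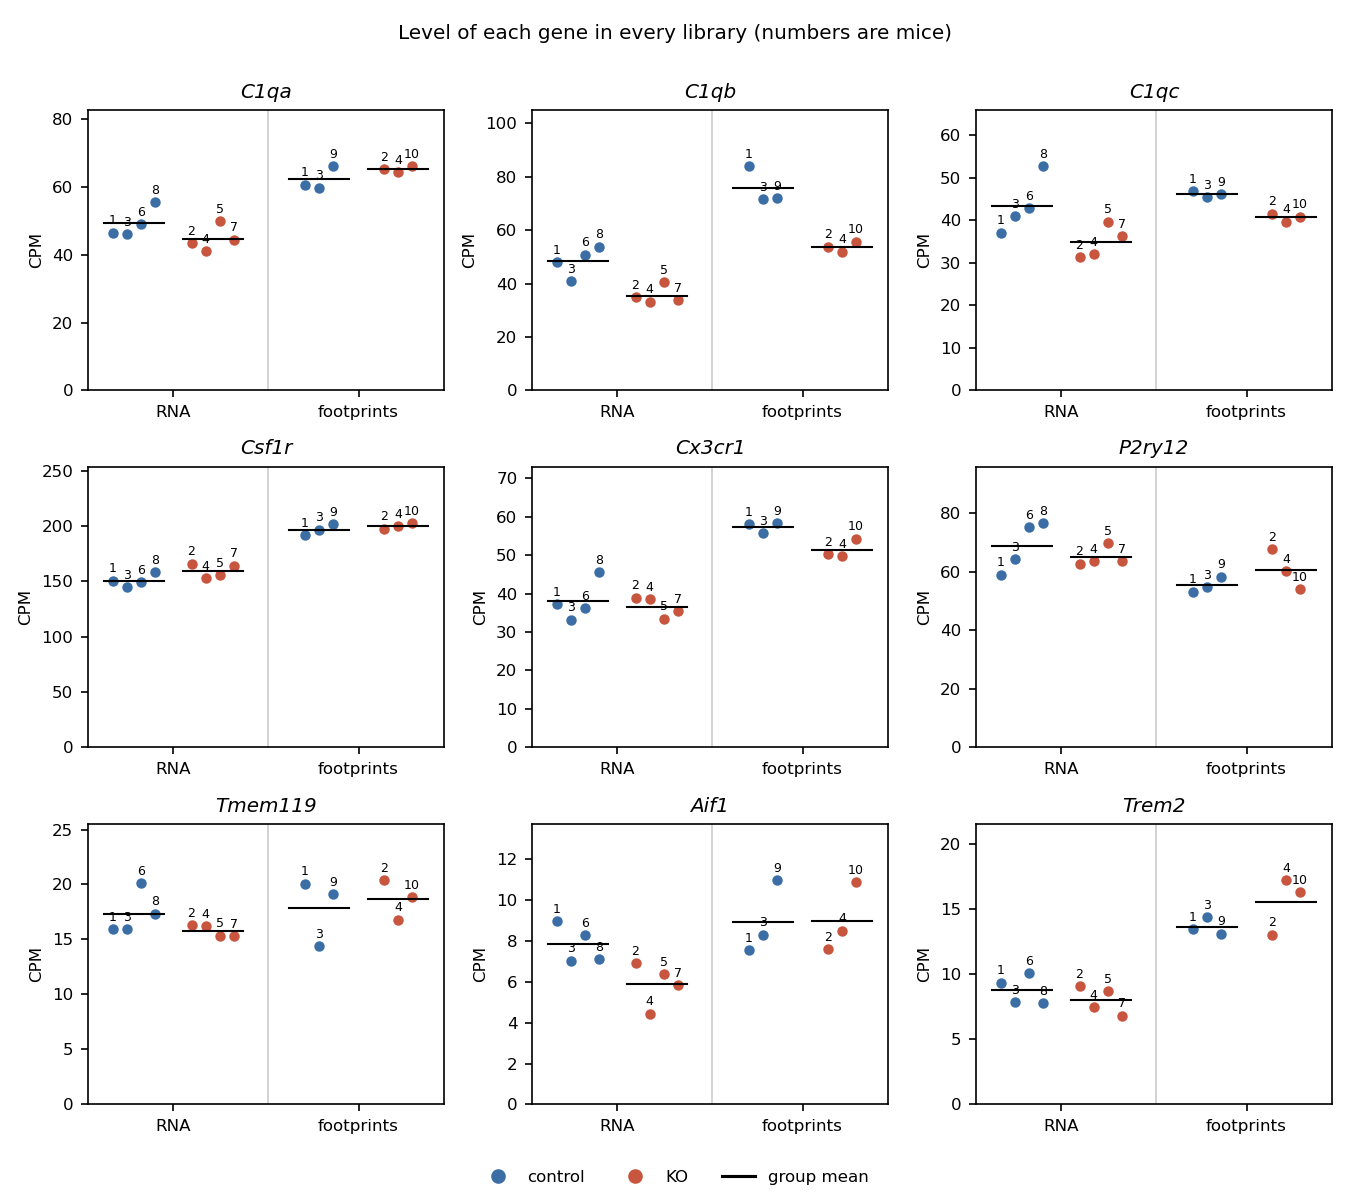
Level of each of the 9 genes in every library, in CPM on a linear axis that starts at 0 (points: libraries with the mouse number; bars: group means; blue: control; red: KO). C1qb is the gene whose KO points lie below all control points in both RNA (33.2 to 40.4 against 40.9 to 53.9 CPM) and footprints (52.0 to 55.7 against 71.7 to 84.0 CPM).

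C1qb encodes the B chain of C1q. Its RNA was at 48.1, 40.9, 50.9 and 53.9 CPM in control mice 1, 3, 6 and 8, and at 34.8, 33.2, 40.4 and 33.7 CPM in KO mice 2, 4, 5 and 7. All 4 KO libraries lay below all 4 control libraries, although KO mouse 5 came close to control mouse 3. The group means were 48.5 ± 5.53 CPM (SD, n = 4) in control mice and 35.5 ± 3.34 CPM (SD, n = 4) in KO mice. Footprints of C1qb were at 84.0, 71.7 and 71.9 CPM in control mice 1, 3 and 9 and at 53.8, 52.0 and 55.7 CPM in KO mice 2, 4 and 10, a wide gap between the groups. Group means of footprints were 75.9 ± 7.03 CPM (SD, n = 3) and 53.8 ± 1.88 CPM (SD, n = 3). The RNA call held with any 1 library left out (adjusted p between 0.00401 and 0.0484, edgeR), but not where KO mice 2, 4 and 7 were summed to 1 library (-0.40, adjusted p = 0.153, edgeR) or control mice 1 and 3 as well (-0.43, adjusted p = 0.188). Titles of RNA samples carry 1 prefix for mice 5 to 8 and 2 others for mice 1 to 4, and within these sets the C1qb fold change was -0.50 (adjusted p = 0.0641, edgeR) and -0.39 (adjusted p = 0.00216, edgeR). The footprint call held under each alternative run, with fold changes between -0.52 and -0.41 and adjusted p between 1.88e-08 and 7e-05. None of these runs summed footprint libraries. By chi-square, footprint pairs of 1 genotype (1.15 to 1.42) were about as close as RNA libraries of KO mice 2, 4 and 7 (1.18 to 1.32). Whether the footprint call would hold with close libraries summed was not tested.

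C1qa, the A chain, had overlapping groups in both assays. Its RNA was at 46.5, 46.1, 49.0 and 55.4 CPM in control mice 1, 3, 6 and 8 and at 43.4, 41.0, 50.0 and 44.4 CPM in KO mice 2, 4, 5 and 7. KO mouse 5 lay above 3 of the 4 control mice, and the fold change of -0.15 ± 0.080 (SE, adjusted p = 0.299, edgeR) was not called. In footprints C1qa was at 60.7, 59.7 and 66.1 CPM in control mice 1, 3 and 9 and at 65.2, 64.3 and 66.0 CPM in KO mice 2, 4 and 10. The KO libraries were within the range of the controls, with a fold change of 0.067 ± 0.074 (SE, adjusted p = 0.561, edgeR). The interval of 2 standard errors on either side, -0.081 to 0.21, does not reach the fold change measured for C1qb.

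C1qc, the C chain, lay between these genes. In RNA it was at 37.1, 40.9, 42.8 and 52.7 CPM in control mice 1, 3, 6 and 8 and at 31.3, 32.0, 39.6 and 36.3 CPM in KO mice 2, 4, 5 and 7. The groups overlapped through KO mouse 5 and control mouse 1, and the fold change of -0.32 ± 0.11 (SE, adjusted p = 0.0776, edgeR) was not called. Without KO mouse 5 it was called (-0.38, adjusted p = 0.0419, edgeR), as it was with only mice 1 to 4 (-0.29, adjusted p = 0.0150) and in a model with title prefix as block (-0.32, adjusted p = 0.0338). Leaving out KO mouse 5 leaves the 3 close KO libraries, and with these as 1 sum the value was -0.27 (adjusted p = 0.388, edgeR), or -0.31 with control mice 1 and 3 summed as well (0.402). Footprints of C1qc were at 46.7, 45.5 and 46.1 CPM in control mice 1, 3 and 9 and at 41.5, 39.6 and 40.8 CPM in KO mice 2, 4 and 10. These groups did not overlap and each was tight, but the fold change of -0.18 ± 0.088 (SE, adjusted p = 0.131, edgeR) was not called.

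All 3 C1q genes had their highest control RNA level in mouse 8 and their highest KO level in mouse 5. These are also the RNA libraries with the most Ttr, a gene of the choroid plexus, at 263 CPM in control mouse 8 and 104 CPM in KO mouse 5 against 0.348 to 9.62 CPM in the other 6 mice. The C1qb call held without control mouse 8 (-0.39, adjusted p = 0.00854, edgeR) and without KO mouse 5 (-0.51, adjusted p = 0.00463). Each of these runs kept the other library with high Ttr, so the part of choroid plexus tissue in the C1q levels was not tested. In footprints the summed level of 9 choroid plexus genes was at 17.9 to 19.7 CPM in control mice and 11.4 to 17.5 CPM in KO mice. Ttr footprints were at 2.60, 3.73 and 4.78 CPM in control mice 1, 3 and 9. They were at 0.474, 1.79 and 1.05 CPM in KO mice 2, 4 and 10, on low counts. Ttr was called lower there (-1.75 ± 0.41 SE, adjusted p = 0.000451, edgeR), as C1qb was.

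Ratios within a library do not depend on how libraries are scaled. The ratio of C1qb to C1qa counts in RNA was 1.03, 0.888, 1.04 and 0.972 in control mice 1, 3, 6 and 8 and 0.802, 0.809, 0.809 and 0.759 in KO mice 2, 4, 5 and 7. All 4 KO mice were below all 4 control mice, with means of 0.795 ± 0.0239 (SD, n = 4) and 0.983 ± 0.0706 (SD, n = 4). In footprints it was 1.39, 1.20 and 1.09 in control mice 1, 3 and 9 and 0.825, 0.808 and 0.844 in KO mice 2, 4 and 10, again without overlap. The exact two-sided permutation test over mice gave p = 0.0286 in RNA and p = 0.1 in footprints, the smallest each design can give, and neither passed Benjamini-Hochberg adjustment over 6 ratios (adjusted p = 0.12 for each). In the second form of RNA columns, whose headers end in exon, the KO mice were at 0.857 to 1.04 and the control mice at 1.05 to 1.21, a gap that was narrow. These ratios were chosen after the levels had been seen.

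The ratio of C1qc to C1qa overlapped in RNA, at 0.797 to 0.951 in control mice and 0.721 to 0.817 in KO mice (exact permutation p = 0.0571). In footprints it did not overlap, at 0.697 to 0.770 in control mice and 0.617 to 0.636 in KO mice (exact permutation p = 0.1, the smallest possible). C1qc relative to C1qb was at 0.556 to 0.640 in control footprints and 0.733 to 0.771 in KO footprints, higher in each KO mouse, and its RNA groups overlapped. Of the 3 chains, C1qb thus had the lowest KO level relative to control in each assay, C1qa the highest, and C1qc a level between them.

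**Figure D2:**
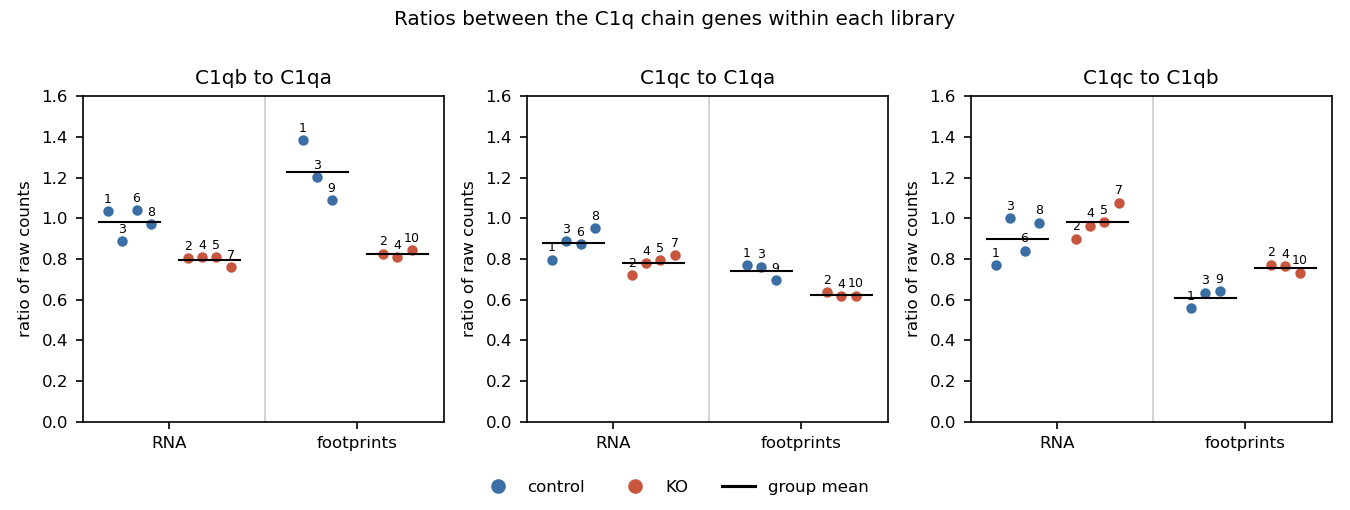
Ratios between the raw counts of the C1q genes within each library, on linear axes that start at 0 (points: libraries with the mouse number; bars: group means; blue: control; red: KO). The ratio of C1qb to C1qa is at 0.759 to 0.809 in KO RNA and 0.888 to 1.04 in control RNA, and at 0.808 to 0.844 in KO footprints and 1.09 to 1.39 in control footprints.

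C1qb, C1qc and C1qa lie next to one another on chromosome 4 in the RefSeq annotation. Of the 9 genes, 6 have a promoter window in RefSeq on GRCm38.p6, 250 bases before to 50 after the start of the gene. The window of C1qb is chr4:136886151-136886450 and that of C1qc chr4:136892865-136893164, both on the minus strand. The windows of C1qb and C1qc, the C1q genes that have one, are shown with P2ry12 at chr3:59262936-59263235 (minus strand), a gene of the same cells that was not called. Capitals mark AGGAAGT, or ACTTCCT where it lies on the other strand, letters that hold the GGAA core bound by ETS factors such as Spi1, a transcription factor of microglia.
C1qb: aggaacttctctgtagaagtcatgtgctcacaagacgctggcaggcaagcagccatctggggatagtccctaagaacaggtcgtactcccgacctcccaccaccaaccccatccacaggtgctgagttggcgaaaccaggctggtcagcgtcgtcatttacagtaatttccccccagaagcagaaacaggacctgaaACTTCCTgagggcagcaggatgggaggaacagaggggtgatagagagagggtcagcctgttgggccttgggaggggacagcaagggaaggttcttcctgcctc
C1qc: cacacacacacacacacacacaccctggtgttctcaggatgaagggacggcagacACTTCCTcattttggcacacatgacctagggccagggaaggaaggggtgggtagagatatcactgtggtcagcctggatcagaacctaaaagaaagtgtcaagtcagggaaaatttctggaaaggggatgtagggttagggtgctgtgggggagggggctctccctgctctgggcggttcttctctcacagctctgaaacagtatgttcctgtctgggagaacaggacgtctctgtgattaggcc
P2ry12: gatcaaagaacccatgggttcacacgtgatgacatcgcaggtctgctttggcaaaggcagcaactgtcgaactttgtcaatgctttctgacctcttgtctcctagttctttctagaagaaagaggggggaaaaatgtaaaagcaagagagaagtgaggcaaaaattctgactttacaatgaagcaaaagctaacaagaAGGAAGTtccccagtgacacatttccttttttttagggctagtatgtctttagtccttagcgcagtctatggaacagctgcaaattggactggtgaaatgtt
A search of both strands found AGGAAGT in 3 of the 6 windows, once each, and in 3072 of all 32851 windows (9.35%). It starts at -53 in C1qb and at -195 in C1qc, on the other strand, and at -52 in P2ry12 on the strand of the gene. Windows of Cx3cr1, Aif1 and Trem2, which are not shown, do not hold these letters, so the 3 windows shown are those with the motif. The motif was chosen after the windows had been seen, and it is in a gene that was called as well as in genes that were not.

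Csf1r, the receptor for the growth factors Csf1 and Il34, varied by 1.24% to 4.05% between libraries of 1 group (coefficient of variation). The RNA was at 145 to 158 CPM in the 4 control mice and 153 to 166 CPM in the 4 KO mice, and its footprints at 192 to 201 CPM and 198 to 203 CPM. The groups overlapped in both assays. Fold changes were 0.082 ± 0.054 (SE, adjusted p = 0.395) in RNA and 0.022 ± 0.043 (SE, adjusted p = 0.766, edgeR) in footprints, with intervals of -0.027 to 0.19 and -0.064 to 0.11. Of its ligands, Il34, which neurons make, rose in KO RNA from 37.6 to 39.6 CPM in control mice to 44.6 to 47.6 CPM in KO mice, with no overlap (0.26 ± 0.062 SE, adjusted p = 0.0209, edgeR). Il34 RNA was not called without control mouse 6 (adjusted p = 0.0605) or KO mouse 2, 4 or 7 (0.0620 to 0.0803), nor with these 3 KO libraries as 1 sum (0.205), with only mice 5 to 8 (0.317) or in the exon columns (0.0551, edgeR). Il34 footprints were at 30.9 to 34.9 CPM and 35.8 to 39.9 CPM and were not called (0.20 ± 0.098 SE, adjusted p = 0.126, edgeR), except on plain library sizes (0.26, adjusted p = 0.0362). Csf1 rose in KO footprints, from 10.2 to 14.4 CPM in control mice to 17.0 to 18.2 CPM in KO mice (0.57 ± 0.15 SE, adjusted p = 0.00257, edgeR). Its RNA groups overlapped, at 10.4 to 13.3 CPM and 10.7 to 12.6 CPM (-0.017 ± 0.11 SE, adjusted p = 0.947).

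Cx3cr1 is the receptor for Cx3cl1 (fractalkine), a chemokine anchored on neurons. Cx3cr1 RNA was at 37.2, 33.2, 36.2 and 45.5 CPM in control mice 1, 3, 6 and 8 and at 38.9, 38.6, 33.5 and 35.4 CPM in KO mice 2, 4, 5 and 7, with full overlap (-0.053 ± 0.094 SE, adjusted p = 0.783, edgeR). Its footprints were at 58.1, 55.6 and 58.3 CPM in control mice 1, 3 and 9 and at 50.3, 49.7 and 54.2 CPM in KO mice 2, 4 and 10. All KO footprint libraries were below all controls, but the fold change of -0.15 ± 0.079 (SE, adjusted p = 0.157, edgeR) was not called. Cx3cl1 rose slightly in KO footprints, from 1403 to 1437 CPM in control mice to 1485 to 1490 CPM in KO mice (0.064 ± 0.021 SE, adjusted p = 0.0162, edgeR). It was not called without control mouse 1 (adjusted p = 0.0733) or KO mouse 10 (0.0504, edgeR), nor by DESeq2 (0.0528), and on plain library sizes its fold change was 0.12 (adjusted p = 1.03e-06). Cx3cl1 RNA was at 515 to 681 CPM in control mice and 626 to 658 CPM in KO mice and was not called (0.17 ± 0.076 SE, adjusted p = 0.198, edgeR), except without control mouse 8 (0.26, adjusted p = 0.00459) and with only mice 1 to 4 (0.34, adjusted p = 8.24e-08).

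P2ry12, which guides microglial processes toward released ADP, was at 58.9, 64.2, 75.2 and 76.6 CPM in the RNA of control mice 1, 3, 6 and 8 and at 62.7, 63.6, 69.7 and 63.6 CPM in KO mice 2, 4, 5 and 7. The KO libraries lay within the control range (-0.084 ± 0.082 SE, adjusted p = 0.586, edgeR). Footprints were at 53.1, 54.8 and 58.3 CPM in control mice 1, 3 and 9 and at 67.6, 60.2 and 54.0 CPM in KO mice 2, 4 and 10 (0.12 ± 0.079 SE, adjusted p = 0.287, edgeR). P2ry12 overlaps Med12l in the RefSeq annotation, as Cx3cr1 overlaps Gm33858 and Csf1r overlaps Mir6983 and Gm52352. The strand setting of the counting is not given in the sources used here, so the counts of these 3 genes could hold reads of the overlapping gene.

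Trem2, a receptor for lipids and lipoproteins that signals through the adaptor Tyrobp, was among the lowest in counts, with 69 to 93 counts per RNA library. Trem2 RNA was at 7.79 to 10.1 CPM in control mice and 6.82 to 9.08 CPM in KO mice (-0.13 ± 0.14 SE, adjusted p = 0.607, edgeR). Its footprints were at 13.5, 14.4 and 13.1 CPM in control mice 1, 3 and 9 and at 13.05, 17.2 and 16.3 CPM in KO mice 2, 4 and 10 (0.19 ± 0.15 SE, adjusted p = 0.399). The groups overlapped in both assays. Tyrobp was not called in RNA (-0.036 ± 0.14 SE, adjusted p = 0.905, edgeR) or in footprints (-0.12 ± 0.14 SE, adjusted p = 0.576).

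Aif1 encodes Iba1, an actin-binding protein whose antibody stains microglia and other macrophages. Aif1 RNA was at 8.96, 7.05, 8.30 and 7.11 CPM in control mice 1, 3, 6 and 8 and at 6.93, 4.44, 6.39 and 5.83 CPM in KO mice 2, 4, 5 and 7. All KO libraries were below all controls, by a narrow margin between KO mouse 2 and control mouse 3. These values rest on 51 to 89 counts per library, and the fold change of -0.42 ± 0.15 (SE, adjusted p = 0.106, edgeR) was not called under any alternative run (adjusted p between 0.0711 and 0.585). Its size was close to that of C1qb, and its standard error was larger. Footprints of Aif1 were at 7.55, 8.31 and 11.0 CPM in control mice 1, 3 and 9 and at 7.59, 8.51 and 10.9 CPM in KO mice 2, 4 and 10, with nearly the same values in both groups. The footprint fold change was 0.00056 ± 0.20 (SE, adjusted p = 0.999, edgeR), with an interval of -0.39 to 0.39 that leaves room for changes as large as the one in RNA.

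Tmem119, a membrane protein that marks microglia among brain macrophages, was at 15.9 to 20.1 CPM in control RNA and 15.3 to 16.3 CPM in KO RNA (-0.13 ± 0.097 SE, adjusted p = 0.459, edgeR). Footprints were at 20.1, 14.4 and 19.1 CPM in control mice 1, 3 and 9 and at 20.4, 16.8 and 18.9 CPM in KO mice 2, 4 and 10 (0.082 ± 0.14 SE, adjusted p = 0.725). The groups overlapped in both assays, and mice 3 and 4 gave the lowest footprint level of their groups.

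Over the 9 genes, the groups did not overlap for 2 genes in RNA (C1qb and Aif1) and for 3 genes in footprints (C1qb, C1qc and Cx3cr1), each time with KO below control. Among all genes tested the groups did not overlap in either direction for 15.1% in RNA and 37.3% in footprints, so these counts are near the background. The summed level of the 9 genes was at 401 to 475 CPM in control RNA and 389 to 419 CPM in KO RNA. In footprints it was at 521 to 545 CPM in control mice and 508 to 519 CPM in KO mice.

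Translational efficiency (TE), tested as the interaction of genotype and assay in 1 edgeR model over all 14 libraries, differed with genotype for none of the 9 genes. Among 12145 genes tested 904 (7.44%) were called, and 1831 with the mouse as a block. None of the 9 had an unadjusted p under 0.05 in edgeR. DESeq2 called none either, but Aif1 and Trem2 had no DESeq2 result to compare. C1qb had a TE difference of -0.042 ± 0.13 (SE, adjusted p = 0.888), with an interval of -0.31 to 0.22. With the mouse as a block it was -0.18 (adjusted p = 0.370, edgeR), again not called. Cx3cr1 had the lowest TE value, -0.11 ± 0.13 (SE, adjusted p = 0.679), and -0.34 with the block (adjusted p = 0.0600, edgeR). Aif1 (0.42 ± 0.26 SE, adjusted p = 0.376) and Trem2 (0.31 ± 0.20 SE, adjusted p = 0.396) had the highest TE values and the widest errors. C1qa (0.21 ± 0.11 SE, adjusted p = 0.299), P2ry12 (0.20 ± 0.13 SE, adjusted p = 0.398) and Tmem119 (0.20 ± 0.18 SE, adjusted p = 0.552) followed, and Csf1r (-0.067 ± 0.073 SE, adjusted p = 0.645) had the narrowest error. The median over the 9 genes was 0.20, against -0.011 over all genes tested.

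**Figure D3:**
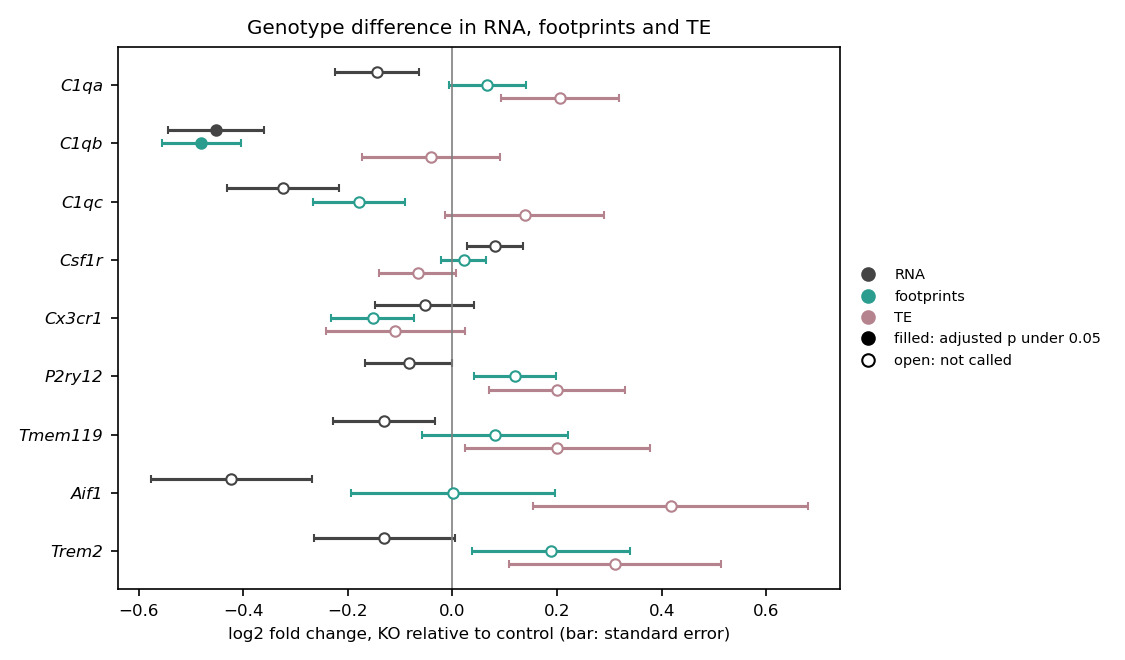
Log2 fold change of each of the 9 genes, KO relative to control, in RNA, footprints and TE (points: fitted value; bars: 1 standard error; filled: adjusted p under 0.05 by edgeR). Only the RNA and footprint values of C1qb, -0.45 and -0.48, are filled, and its TE value of -0.042 lies at 0 within its error.

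Relative to RNA, 8 of the 9 genes had more footprints than the median gene in control mice and all 9 in KO mice. The log2 ratio of mean footprint CPM to mean RNA CPM had a median of -0.13 over 12145 genes in each genotype. In control mice C1qb was at 0.65, the 84.1 percentile of these genes, Trem2 at 0.64 (83.7), Cx3cr1 at 0.59 (82.4), Csf1r at 0.38 (74.3) and C1qa at 0.34 (72.0). P2ry12 was lowest, at -0.31 (42.0 percentile) in control mice and -0.098 (51.3) in KO mice. Aif1 went from 0.19 (65.3 percentile) in control mice to 0.61 (82.5) in KO mice, but within the mice read in both assays it spanned -0.25 to 0.24 in control mice 1 and 3 and 0.13 to 0.94 in KO mice 2 and 4. For C1qb the same mice gave 0.80 and 0.81 in controls and 0.63 and 0.65 in KO mice, and for C1qa 0.38 and 0.37 against 0.59 and 0.65. Cx3cr1 was at 0.64 and 0.75 in these controls and 0.37 in both KO mice, a wider gap than that of C1qb. These ratios also hold any difference in how the 2 assays capture a transcript.

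**Figure D4:**
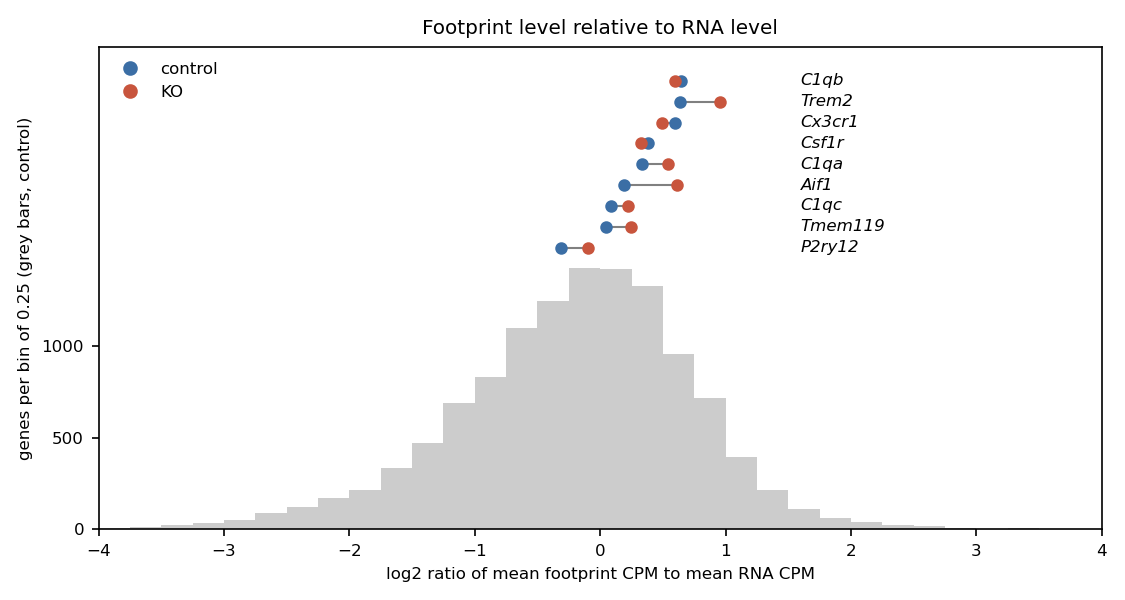
Footprint level relative to RNA level, as the log2 ratio of mean CPM, for the 9 genes (points joined by a line; blue: control; red: KO) above the distribution over 12145 genes in control mice (grey bars, genes per bin of 0.25). In control mice P2ry12 at -0.31 is the only one of the 9 below the median of all genes, -0.13.

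The table gives RNA counts in 2 forms, and the form used above held fewer counts than the exon form for each of the 9 genes. Shares here are its pooled counts as a percentage of the exon counts. The pooled share was 65.6% at the median gene, 91.0% for C1qa, 82.0% for Csf1r, 79.4% for C1qb, 76.5% for Aif1, 72.2% for C1qc and 70.8% for Trem2. It was 57.4% for P2ry12, 40.1% for Tmem119 and 30.8% for Cx3cr1, whose main RNA value thus rests on less than the exon form holds. In the exon form C1qb was called as well (-0.43 ± 0.087 SE, adjusted p = 0.0112, edgeR), and it was again the only one of the 9. Cx3cr1 had -0.11 ± 0.053 (SE, adjusted p = 0.226) and Aif1 -0.42 ± 0.14 (SE, adjusted p = 0.0788, edgeR) there.

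Across the 8 RNA libraries the C1q genes were the most alike of the 9, with a Pearson r of 0.93 between C1qa and C1qc, 0.84 between C1qa and C1qb and 0.83 between C1qb and C1qc. C1qc and C1qa were next closest to P2ry12 (0.77 each), and C1qb to Aif1 (0.75). Csf1r did not share this pattern, with values between -0.41 (with C1qb) and 0.39 (with Cx3cr1). These are descriptions over 8 libraries that share the genotype difference and the spread between mice. The mean standardised level of the 9 genes was highest in control mice 8 (1.04) and 6 (0.79) and lowest in KO mice 4 (-0.78) and 7 (-0.53). Among 11444 other genes above a mean of 5 CPM, those whose RNA followed this mean most closely were Mag (r = 0.99), Bnip3 (0.98), Lrch3 (0.97), Rpl12 (0.97), Ctsd (0.97), Rpl19 (0.97), Opalin (0.96) and Trp53i11 (0.96). Mag and Opalin are myelin genes of oligodendrocytes, and Rpl12 and Rpl19 encode ribosomal proteins. A list of 12 oligodendrocyte genes summed to 5573 to 6137 CPM in control RNA and 4989 to 5296 CPM in KO RNA, and its part in the levels of the 9 genes was not tested. How often such values of r arise by chance with 8 libraries and 11444 candidates was not tested.

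Downstream of C1q, C4b fell in KO mice in both assays. C4b encodes complement C4, the first substrate of the activated C1 complex, and astrocytes and oligodendrocytes make it as well as microglia. C4b RNA was at 21.2, 20.6, 15.3 and 15.3 CPM in control mice 1, 3, 6 and 8 and at 13.1, 11.4, 13.8 and 14.2 CPM in KO mice 2, 4, 5 and 7 (-0.47 ± 0.13 SE, adjusted p = 0.0392, edgeR). The groups did not overlap, with a wide gap in mice 1 to 4 and a narrow one in mice 5 to 8, where the fold change was -0.12 (adjusted p = 0.820). C4b RNA was not called without control mouse 1 or 3 (adjusted p = 0.120 and 0.100, edgeR) or KO mouse 2, 4 or 7 (0.0727 to 0.137), nor with these 3 KO libraries as 1 sum (0.205). Footprints of C4b were at 16.8, 19.2 and 15.2 CPM in control mice 1, 3 and 9 and at 11.9, 11.4 and 11.3 CPM in KO mice 2, 4 and 10, with a fold change of -0.57 ± 0.15 (SE, adjusted p = 0.00288, edgeR) that was called under all 11 alternatives.

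The proteases, receptors and transcription factors next to C1q on the partner list, and C3, were not called. C3, on 3 to 14 counts per RNA library, had a fold change of -0.98 ± 0.38 (SE, adjusted p = 0.135, edgeR), C1ra 0.23 ± 0.25 (SE, adjusted p = 0.638) and C3ar1, the receptor of the C3a fragment, -0.35 ± 0.22 (SE, adjusted p = 0.368). C1s was too low to be tested in either assay. Itgam and Itgb2, which together form complement receptor CR3, had RNA fold changes of 0.032 ± 0.074 and 0.037 ± 0.15 (SE, adjusted p = 0.838 and 0.912) and footprint fold changes of 0.052 ± 0.082 and -0.27 ± 0.21 (SE, adjusted p = 0.702 and 0.398, edgeR). The transcription factors Spi1 (listed as Sfpi1) and Irf8 had RNA fold changes of -0.095 ± 0.22 and -0.12 ± 0.17 (SE, adjusted p = 0.835 and 0.717). In all, 12 of 13 partners were tested in RNA and 9 in footprints and TE, and TE was called for none of them.

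Among 46 further complement genes, receptors and regulators, 27 were tested in RNA and 2 were called, both lower in KO mice, beside 3.94% of all genes called lower. These were C4b and C2 (-0.85 ± 0.24 SE, adjusted p = 0.0440, edgeR), the next component of the classical pathway, which had 12 to 36 counts per library. C2 RNA was not called without control mouse 1, 3 or 6 or KO mouse 2, 4 or 7 (adjusted p between 0.0837 and 0.139, edgeR), nor with the 3 close KO libraries as 1 sum (0.175), with only mice 5 to 8 (0.407) or with title prefix as block (0.0607). The count of 2 became 5 with only mice 1 to 4, 1 with DESeq2 or the prefix block, and 0 with only mice 5 to 8, with that sum and without control mouse 1 or 3 or KO mouse 2, 4 or 7, 1 without control mouse 6 and 4 without control mouse 8. The RNA median of the 27 was 0.024, with 15 genes above 0 and 12 below. In footprints 21 were tested, 7 were called lower and 2 higher, beside 13.7% and 12% of all genes, with a median of -0.13. Of the 7, Sez6l (-0.36 ± 0.029 SE), Sez6 (-0.20 ± 0.032 SE), Sez6l2 (-0.14 ± 0.025 SE) and Csmd1 (-0.29 ± 0.053 SE) are large neuronal membrane proteins with complement-control repeats. C4b and Vtn (-0.22 ± 0.050 SE) were also among them. Susd4 (0.32 ± 0.070 SE) and Clu (0.093 ± 0.021 SE), a secreted chaperone that also inhibits the terminal pathway, rose. TE was called for 3 of 21, beside 4.22% of all genes called lower, namely Sez6l (-0.55 ± 0.072 SE), Sez6 (-0.36 ± 0.079 SE) and Csmd1 (-0.34 ± 0.079 SE), all lower, although Csmd1 was not called with mouse 10 left out (adjusted p = 0.0501, edgeR).

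The C1q domain that gives the family its name is shared by other secreted proteins, among them the cerebellins and the C1q/TNF-related proteins. Of 23 such genes 16 were tested in RNA and none was called by edgeR or DESeq2, with 1 at an unadjusted p under 0.05. In footprints 1 of 14 was called, beside 25.7% of all genes, namely C1qtnf4, which was higher (0.20 ± 0.039 SE, adjusted p = 2.73e-05, edgeR) but was not called by DESeq2 (adjusted p = 0.0552).

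Other genes of resting microglia did not follow C1qb. Of 40 on a homeostatic list 39 were tested in RNA and none was called by edgeR or DESeq2, with 2 at an unadjusted p under 0.05 and a median of -0.036. Without control mouse 8 there was 1 called higher, without KO mouse 5 there were 2 and with only mice 1 to 4 there were 4. In footprints 7 of 38 were called higher and none lower, with a median of 0.10, beside 12% of all genes called higher. Ctss, a lysosomal protease, was at 94.6, 99.2 and 91.3 CPM in control mice 1, 3 and 9 and at 125, 134 and 131 CPM in KO mice 2, 4 and 10 (0.45 ± 0.056 SE, adjusted p = 1.70e-10, edgeR), with a wide gap between groups. The inhibitory receptor Lair1 (0.68 ± 0.25 SE, adjusted p = 0.0298), the lectin Siglech (0.55 ± 0.15 SE, adjusted p = 0.00375) and the tetraspanin Cd53 (0.49 ± 0.19 SE, adjusted p = 0.0401, edgeR) rose too, on 20 to 93 counts per library. Of these 4, only Ctss kept its call with any 1 library left out. Siglech lost it without KO mouse 4 (adjusted p = 0.0801), Lair1 without control mouse 3 or 9 or KO mouse 10 (0.0760 to 0.183), and Cd53 without control mouse 9 or any KO mouse (0.0620 to 0.262, edgeR). DESeq2 called neither Lair1 (adjusted p = 0.163) nor Cd53 (0.192). The count of 7 became 4 without control mouse 9, without KO mouse 4 and with DESeq2, and 11 on plain library sizes. In TE 1 of 38 was called, beside 3.22% of all genes called higher, namely Ctss (0.28 ± 0.082 SE, adjusted p = 0.0418), and not with the mouse as a block (adjusted p = 0.156), without a filter on low counts (0.0641), with KO RNA libraries 2, 4 and 7 as 1 sum (0.0966) or without mouse 1, 2, 4, 6, 7, 9 or 10 (0.0674 to 0.117). The summed level of the 40 genes was at 900 to 918 CPM in control footprints and 1011 to 1022 CPM in KO footprints, and at 920 to 994 CPM and 944 to 982 CPM in RNA.

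Genes of reactive microglia moved in both directions. In RNA 18 of 24 were tested and 4 were called, all lower in KO mice, beside 3.94% of all genes called lower. Cd74 (-0.81 ± 0.18 SE, adjusted p = 0.0169) and Spp1 (-0.74 ± 0.12 SE, adjusted p = 0.00317) were 2 of them, and Apoe (-0.31 ± 0.051 SE, adjusted p = 0.00309) and Ctsl (-0.18 ± 0.052 SE, adjusted p = 0.0471, edgeR) the others. Apoe in brain comes mostly from astrocytes, and Cd74, the MHC class II invariant chain, is high in border macrophages and blood myeloid cells. With the 3 close KO libraries as 1 sum, only Spp1 was called, with Cd74 at an adjusted p of 0.125, Apoe at 0.124 and Ctsl at 0.255 (edgeR), and Spp1 was not called with control mice 1 and 3 summed as well (0.0885). With only mice 5 to 8 none of these 4 was called (adjusted p between 0.205 and 0.362, edgeR). Cd74 also lost its call without control mouse 6 or KO mouse 2, 4 or 7 (0.0576 to 0.0668), and Ctsl without any 1 library other than control mouse 8 (0.0572 to 0.133), with title prefix as block (0.0687), without a filter (0.0659), on plain library sizes (0.0548) and in the exon columns (0.0543). In footprints Cd74 fell too (-0.80 ± 0.22 SE, adjusted p = 0.00281, edgeR). The lysosomal proteases Ctsz (0.32 ± 0.096 SE), Ctsb (0.25 ± 0.026 SE), Ctsl (0.11 ± 0.038 SE) and Ctsd (0.087 ± 0.028 SE) and the MHC class I subunit B2m (0.18 ± 0.052 SE) rose, 5 of 17 tested beside 12% of all genes, but only Ctsb was called by DESeq2 (adjusted p of the others between 0.0617 and 0.118). B2m was not called without control mouse 3 (adjusted p = 0.145), Ctsz not without control mouse 1 or KO mouse 2 (0.119 and 0.0510), Ctsd not without control mouse 3 or KO mouse 2 or 10 (0.0656 to 0.182), and Ctsl not without control mouse 1 or 9 or KO mouse 2 or 4 (0.0594 to 0.0969, edgeR). TE was called higher for 3 of 17, beside 3.22% of all genes, Ctsb (0.36 ± 0.064 SE), Ctsl (0.28 ± 0.070 SE) and Apoe (0.26 ± 0.060 SE), although without mouse 4 neither Ctsl (adjusted p = 0.0544) nor Apoe (0.0727) was called. Ctsl was also not called in TE without mouse 1 or 2 (0.0649 and 0.0750), nor Apoe with KO RNA libraries 2, 4 and 7 as 1 sum (0.0817, edgeR).

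Among 18 cytokines, chemokines and neuronal signals to microglia, 8 were tested in each assay, and 2 were called in RNA and 4 in footprints, beside 7.51% and 25.7% of all genes. In RNA Il34 and Cd47, a signal that restrains engulfment by macrophages, were called higher (Cd47 0.40 ± 0.11 SE, adjusted p = 0.0393, edgeR). Cd47 was not called in RNA without control mouse 1 or 6 or KO mouse 2, 4 or 7 (adjusted p between 0.0521 and 0.0859, edgeR), nor with these 3 KO libraries as 1 sum (0.0940) or with only mice 5 to 8 (0.0505), and its fold change was 0.21 with only mice 1 to 4 and 0.26 without KO mouse 5. In footprints Csf1, Cd47 (0.27 ± 0.038 SE, adjusted p = 3.66e-09) and Cx3cl1 were called higher and Cd200 lower (-0.15 ± 0.047 SE, adjusted p = 0.00875, edgeR). Cd200, a neuronal ligand that quiets microglia, lost its call without control mouse 9 (adjusted p = 0.0644, edgeR) or KO mouse 4 (0.0922), with DESeq2 (0.0843) and on plain library sizes (-0.094, adjusted p = 0.127).

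Macrophages at the borders of the brain also express C1q, Csf1r and Aif1. Of 11 of their marker genes 6 were tested in footprints and 3 were called, all lower in KO mice, beside 13.7% of all genes called lower. The median of the 6 was -0.47, and 1 of them, Cbr2, lay above 0 (0.099). The scavenger receptor Stab1 was at 38.5, 35.3 and 31.7 CPM in control mice 1, 3 and 9 and at 24.9, 23.7 and 27.6 CPM in KO mice 2, 4 and 10, without overlap (-0.45 ± 0.11 SE, adjusted p = 0.000605, edgeR). The mannose receptor Mrc1 (-0.50 ± 0.13 SE, adjusted p = 0.00140) and Cd163 (-0.69 ± 0.26 SE, adjusted p = 0.0416, edgeR) fell too. Mrc1 was not called without control mouse 3 (adjusted p = 0.0581), nor Cd163 without control mouse 1 or 3 or KO mouse 2 or 10 (0.0733 to 0.240), with DESeq2 (0.194) or on plain library sizes (0.0617), and without control mouse 3 only 1 of these genes was called. In RNA 8 were tested and none was called by edgeR or DESeq2, with 2 at an unadjusted p under 0.05, all 8 below 0 and a median of -0.29 (1 was called without control mouse 8, with only mice 1 to 4 and in the exon columns). TE was called for none of 6 by edgeR or DESeq2, with 1 at an unadjusted p under 0.05, and for 1 with the mouse as a block. The summed level of the 11 genes was at 84.0 to 90.1 CPM in control footprints and 61.0 to 67.0 CPM in KO footprints, and at 64.5 to 80.7 CPM and 60.4 to 66.1 CPM in RNA, and none of the 11 was at 0 throughout a group. Marker genes of blood leukocytes summed to 4.03 to 5.70 CPM in control RNA and 2.32 to 3.26 CPM in KO RNA, and to 3.78 to 5.85 CPM and 1.68 to 2.24 CPM in footprints, over 15 genes. Ly6c2 was at 0 in each group, and Cd3d and Cd8a in all but control RNA. None of the leukocyte genes passed the filter on low counts in footprints. Both sums were lower in KO footprints, as C1qb was. This was not specific to these lists: the footprint sums of oligodendrocyte precursor and pericyte genes were lower too, and that of inhibitory neuron genes was higher. The part of any of these cells in the lower C1qb level was not tested.

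**Figure D5:**
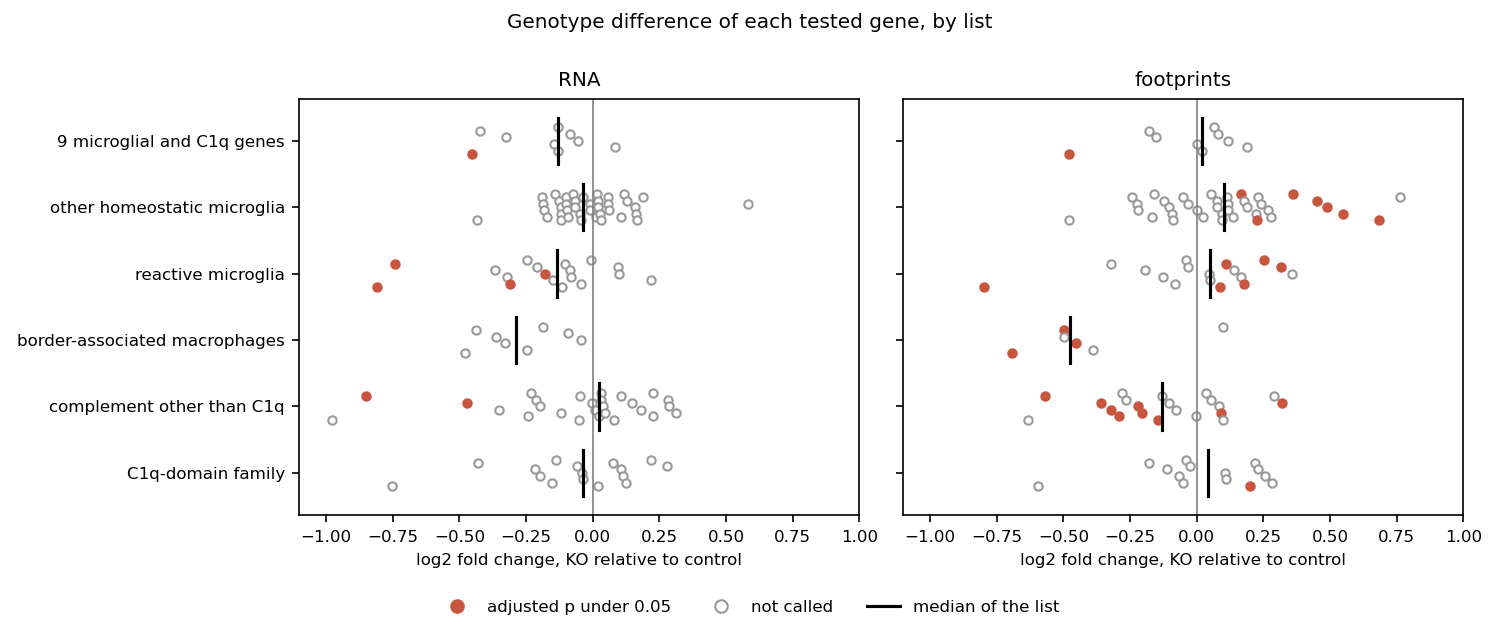
Log2 fold change of each tested gene, KO relative to control, by list, in RNA (left) and footprints (right) (red: adjusted p under 0.05 by edgeR; open: not called; bar: median of the list). Of the 6 lists plotted, border-associated macrophage genes have the lowest medians, -0.29 in RNA and -0.47 in footprints, while the other homeostatic microglia genes have medians of -0.036 and 0.10.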

How the data were processed

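Counts per gene from 8 RNA and 6 footprint libraries of mouse cortex were used as the authors deposited them in 1 table. Per the submitters' processing notes, Bowtie2, STAR 2.5, featureCounts and Subread 1.4.6 and the builds mm9 and mm10 were used, with no roles given. RNA counts come in 2 forms, 1 with headers that end in exon. The other form, used here beside the footprint counts, has no value for 2849 of 23412 genes, and the region it counts is not given in the sources used here. Coding lengths were not used.

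Genotypes were compared with edgeR 4.0.16 (R 4.3.3): TMM scaling, filterByExpr with its minimum count set to 10, quasi-likelihood test, Benjamini-Hochberg adjustment over all genes tested, called under 0.05. Log2 fold changes carry standard errors derived from the F statistic. TE was the interaction of genotype and assay. DESeq2 1.42.0, other scalings, no filter, a title-prefix block, summed RNA libraries and single libraries left out were the alternatives. Mice 1 to 4 are the same animals in both assays per the labels, and their deviations from the group means correlated at 0.00326, 0.0107, 0.0336 and -0.0134 between assays. The genes, the lists of partners and cell types and the tests were chosen with earlier results of these data known. Named are the 9 genes, their partners by role and, from each list shown, up to 4 called genes with the largest rise and fall. Other called genes (Sez6, Sez6l2, Vtn, Ctsd), Cbr2 and Ttr were named after their values were seen, and 1 called list gene is not reported here. Scripts were tested on simulated data. The smallest exact permutation p is 0.0286 for 4 against 4 mice and 0.1 for 3 against 3.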

Additional observations from a re-analysis of the deposited data

Results flagged for a closer look

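In RNA groups of 4, a sample was marked where its gap to the nearest of the others as a share of the range of the group exceeded Dixon's 95% critical value. Of 26 groups tested 2 were marked, and chance marks about 1 in 20. P2ry12 was at 69.7 CPM in KO mouse 5 against 62.7 to 63.6 CPM in the other KO mice. The ratio of C1qb to C1qa counts was 0.759 in KO mouse 7 against 0.802 to 0.809 in the other KO mice, farther from the control values of 0.888 to 1.04.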

How the results depend on the processing

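The 9 genes in 3 comparisons gave 412 values under alternatives, of which 393 kept their direction and call, 3 lost the call, 3 gained it and 13 changed sign while uncalled. The number of the 9 called in RNA, 1, was 0 with KO mice 2, 4 and 7 as 1 sum, with that of control mice 1 and 3 added and in mice 5 to 8 alone, and 2 in mice 1 to 4 alone, with a block for title prefix and without KO mouse 5, so 1 to 2 with 1 library left out. In footprints it stayed at 1 and in TE at 0. Over all genes, the 1015 called in RNA became 85 with KO mice 2, 4 and 7 summed, 36 with both sums, 3284 with only mice 1 to 4, 57 with only mice 5 to 8, and 372 (without KO mouse 4) to 1791 (without control mouse 8) with 1 library left out. The 3123 called in footprints became 1801 with DESeq2. The 904 called in TE became 505 and 512 with the summed libraries, 1831 with the replicate block by mouse number, and 376 (without mouse 2) to 1229 (without mouse 8). The block changed no call of the 9 genes in TE.

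Signs that changed belong to small uncalled log2 fold changes. With only mice 1 to 4, RNA values were 0.15 (Cx3cr1), 0.043 (P2ry12), 0.035 (Tmem119), -0.035 (Itgam), -0.044 (Itgb2) and 0.092 (Tyrobp), and with only mice 5 to 8 -0.070 (C1ra), 0.057 (Csf1) and 0.073 (Sfpi1). In the exon columns they were 0.079 (Csf1), -0.040 (Itgam) and 0.030 (Tyrobp). On plain library sizes C1qb in TE was 0.025 and Irf8 in footprints 0.0064, and Aif1 in footprints was -0.00023 with DESeq2 size factors and -3.2e-05 without a filter. With 1 library left out, ranges that cross 0 were, in footprints, -0.17 to 0.18 (Aif1), -0.22 to 0.13 (Irf8), -0.17 to 0.35 (Sfpi1) and -0.068 to 0.16 (Tmem119). They were -0.094 to 0.032 for C1qb in TE and, in RNA, -0.068 to 0.051 (Csf1), -0.11 to 0.050 (Cx3cr1), -0.017 to 0.059 (Itgam), -0.049 to 0.13 (Itgb2), -0.24 to 0.045 (Sfpi1) and -0.12 to 0.13 (Tyrobp). Of the 9 genes, depth limits Aif1 and Trem2 most, with 32 to 93 counts per library. Counts were lower for C1ra in RNA (10 to 21) and for Sfpi1 (17 to 41 over both assays). The cause of each change was not tested.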
